A study of Mus musculus with 4 samples.

Results

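The insulin-like growth factor (IGF) genes described here are the ligands Igf1 and Igf2, the receptor Igf1r and the binding proteins Igfbp2, Igfbp3, Igfbp4, Igfbp5, Igfbp6 and Igfbp7. They were taken as all array probes that carry one of these 9 gene names. This gave 15 probes for 9 genes, of 39429 gene probes for 29987 genes on the array. All 15 probes were well above background and were kept, as were 28611 probes in all. Igfbp2, Igfbp3 and Igfbp5 were set against the other 6 genes. The genes and their division were chosen by the cKO over control ratios measured on these same arrays, so those ratios are given as a description, without a test of their own.

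The study compared total RNA of ureters dissected from NMRI mouse embryos at stage E15.5. The ΔNp63-cKO embryos, called cKO here, carried Pax2-cre/+ together with both alleles floxed, Trp63(dN-flox/dN-flox). Control embryos had the genotype Trp63(dN-flox/?), with the second allele not given and no cre listed. The ΔN form of p63, encoded by Trp63, is a DNA binding regulator of the basal layer of stratified epithelia, and Pax2-cre is active, among other tissues, in the nephric duct and the epithelium derived from it. Since all cKO embryos and none of the controls were listed with cre, an effect of the cre transgene and loss of ΔNp63 cannot be told apart. Each of 4 arrays paired a cKO with a control RNA, both female on replicates 1 and 2 and both male on replicates 3 and 4. The cKO RNA carried the red dye on replicates 1 and 3 and the green dye on replicates 2 and 4. The labels do not say how many embryos went into an RNA, so the spread is that between these RNAs.

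IGF1 and IGF2 are secreted peptides that promote growth and survival through the receptor tyrosine kinase encoded by Igf1r. In tissue fluid they are bound by IGF binding proteins, which hold the ligands away from the receptor or carry and release them. Proteases such as the pappalysins cut binding proteins and free the ligand. Igfbp7 encodes a relative with low affinity for IGFs. In embryos, Igf2 is expressed mainly from the paternal allele.

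The probes that carry the comparison of the binding proteins are shown first, because both Igfbp2 probes lie close together. Coordinates are of build mm9, as in the deposited files. The first Igfbp2 probe, A_55_P2056729, is shown whole, with the stop codon that ends it in its first reading frame in capitals. Of the other 60-base probes the first 30 bases are shown.
Igfbp2, A_55_P2056729, chr1:72898677-72898736, plus strand: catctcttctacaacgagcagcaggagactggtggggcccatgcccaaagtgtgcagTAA
Igfbp2, A_66_P135391, chr1:72898813-72898872, plus strand: aggagttcccagttttgacacatgtattta
Igfbp3, A_52_P253179, chr11:7106594-7106653, minus strand: gcagttttccaaaaacacagatttcttttc
Igfbp5, A_52_P281702, chr1:72904829-72904888, minus strand: cacatcacatattactgtagctctctatag
Igf2, A_55_P2118173, chr7:149839661-149839720, minus strand: atcaaattatgtggtaattctgcaatgtag
The first Igfbp2 probe holds 19 codons before that stop, and the other lies 76 bases downstream. Whether the probes lie in exons or untranslated regions was not analysed here.

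Values below are log2 ratios of cKO over control, normalised within each array, or normalised log2 intensities of single RNAs. Median raw signals of the arrays ranged from 382 to 416 in the green and from 519 to 617 in the red channel. Between pairs of arrays the ratios of 21500 genes had a Pearson r of -0.06 (replicates 2 and 4) to 0.62 (replicates 2 and 3) and a Spearman rho of -0.32 to 0.58. The dyes of each array come from the labels, so the direction was kept. Trp63, the targeted gene, was lower on all 4 arrays, with log2 ratios of -1.39, -1.18, -1.30 and -1.62. All 12 epithelial, 7 superficial urothelial, 12 ureteric mesenchyme and 10 smooth muscle markers listed for the ureter were measured above background.

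Among the binding proteins, Igfbp2 was the one past the threshold. Its RNA was 1.50-fold lower in cKO ureters, with a mean log2 ratio of -0.59 ± 0.23 (SD, n = 4). It was the 1 member of 9 called over all genes (limma, Benjamini-Hochberg adjusted p under 0.05). Over all 21501 genes tested, 1.24% were called in either direction with 0.712% called lower and 0.526% called higher. The members were proposed with this contrast known, so nothing is read from their count against that share. Igfbp3 and Igfbp5, the other two genes of the proposed group, were not called. Their mean log2 ratios were -0.05 ± 0.08 and -0.26 ± 0.26 (SD, n = 4 each).

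Igfbp2 encodes a secreted binding protein with higher affinity for IGF2 than for IGF1 that can also bind integrins at the cell surface. In the brighter probe, A_66_P135391, cKO RNAs of replicates 1 to 4 had log2 intensities of 13.33, 13.37, 13.33 and 13.47. The control RNAs of the same arrays had 13.91, 13.94, 14.21 and 13.79. Every cKO RNA lay below every control RNA, and the 4 cKO RNAs lay closer together (SD 0.07) than the 4 control RNAs (SD 0.18). The log2 ratios were -0.58, -0.57, -0.88 and -0.32. Replicate 3 showed the largest decrease, and it was the control RNA of that array that stood highest. The second probe, A_55_P2056729, gave -0.64, -0.63, -1.06 and -0.20, a mean of -0.63 ± 0.35 (SD, n = 4). Its 4 cKO RNAs, at 12.51 to 12.89, also lay below its 4 control RNAs, at 13.09 to 13.57. Both probes gave the same order of arrays, but they lie so close together that they are not independent measurements of the transcript. Of the 15 member probes these 2 were the ones with no overlap between the groups, and over all 21500 genes with 8 values 3.33% had every cKO RNA below every control RNA.

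The Igfbp2 call was close to the threshold. By p it stood 255th of the 266 genes called, and 124 of the 153 genes called lower had a larger decrease. The median log2 ratio of those 153 genes was -0.80. When every probe was tested by itself, where 1.01% of 28611 probes were called, neither Igfbp2 probe was called. Without replicate 3 the log2 ratio fitted with the dye term was -0.51, and Igfbp2 was no longer called. It was also not called under 6 other ways of processing the values, with log2 ratios of -0.61 to -0.53.

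**Figure D1:**
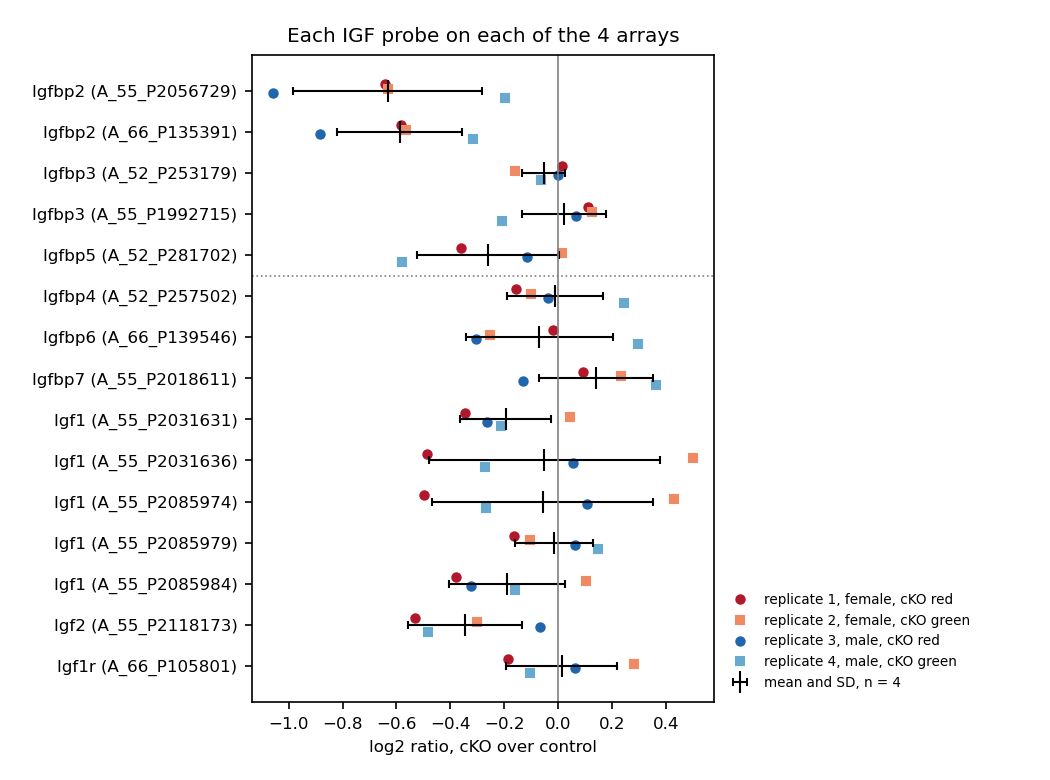
Log2 ratio of cKO over control (x axis) for each of the 15 IGF probes (rows), with 1 point per array, coloured by replicate, circles where cKO was red and squares where it was green, and the mean and SD of the 4 arrays in black. Both Igfbp2 probes lie left of 0 on all 4 arrays, whereas the 2 Igfbp3 probes, at -0.21 to 0.12, and the Igf1 probes lie on both sides of 0. The dotted line separates Igfbp2, Igfbp3 and Igfbp5 from the other 6 genes.

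**Figure D2:**
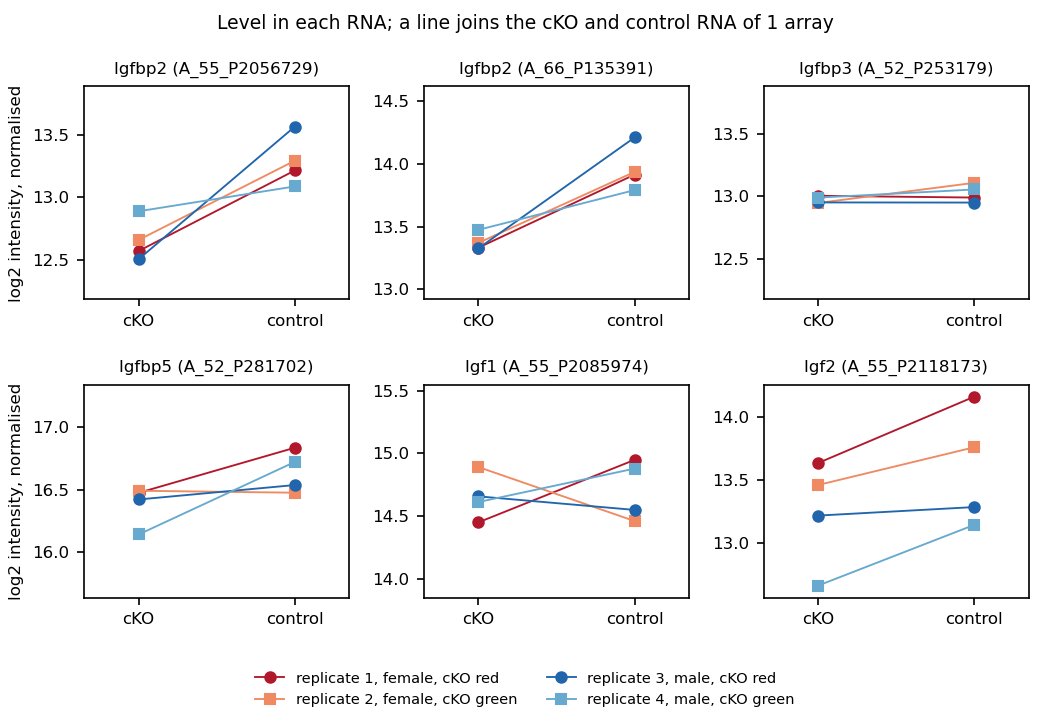
Normalised log2 intensity (y axis, the same span of 1.7 in each panel) of cKO and control RNAs for both Igfbp2 probes and for 1 probe of Igfbp3, Igfbp5, Igf1 and Igf2, with a line joining the 2 RNAs of 1 array. The cKO RNAs lie below all control RNAs for both Igfbp2 probes, and the groups overlap in the other panels.

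**Figure D3:**
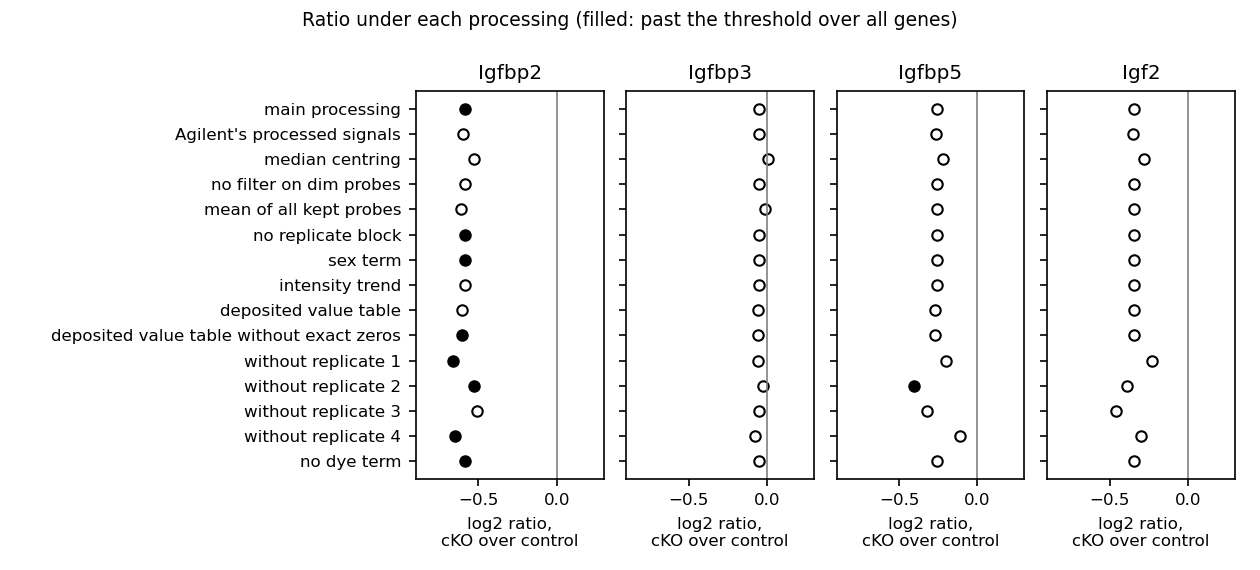
Log2 ratio of cKO over control (x axis) of Igfbp2, Igfbp3, Igfbp5 and Igf2 in the main processing and 14 alternatives (rows), filled where the gene passed adjusted p under 0.05 over all genes. Igfbp2 lies between -0.66 and -0.51 throughout with 7 of 14 alternatives past the threshold, and Igfbp5 is filled once, without replicate 2.

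Igfbp5 encodes the most conserved of the binding proteins, which binds extracellular matrix and is cut by pappalysins. Its cKO RNAs had log2 intensities of 16.48, 16.49, 16.42 and 16.14, against 16.83, 16.48, 16.54 and 16.72 in the control RNAs. The log2 ratios were -0.36, 0.02, -0.12 and -0.58. The ratio was negative on 3 of 4 arrays and near 0 on replicate 2, and the groups overlapped. Igfbp5 was called in 1 setting, without replicate 2, where the log2 ratio fitted with the dye term was -0.41. Without replicate 4 this fitted ratio was -0.11.

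Igfbp3 encodes the main carrier of IGFs in blood, which holds them in a complex with the acid-labile subunit. The brighter Igfbp3 probe gave log2 intensities of 13.00, 12.95, 12.95 and 12.99 in cKO RNAs, against 12.99, 13.11, 12.95 and 13.05 in control RNAs. Its log2 ratios were 0.01, -0.16, 0.00 and -0.06. This was the smallest spread of the 9 genes, and 85.1% of all genes had a larger SD. The second Igfbp3 probe, A_55_P1992715, lies 1295 bases away and was dim, with log2 intensities of 7.72 to 7.92 in cKO RNAs and 7.68 to 7.93 in control RNAs. Its mean log2 ratio was 0.02 ± 0.16 (SD, n = 4). Neither probe showed a decrease in cKO ureters like that of Igfbp2.

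The other binding proteins varied around 0. Igfbp4, whose product mainly inhibits IGF action and is the classical substrate of pappalysin, had log2 ratios of -0.15, -0.10, -0.04 and 0.25 (mean -0.01 ± 0.18, SD, n = 4). Igfbp6, which encodes a binding protein with a strong preference for IGF2, had ratios of -0.02, -0.25, -0.31 and 0.29 (mean -0.07 ± 0.27). Igfbp7, also known for its presence in the matrix of blood vessels, had ratios of 0.09, 0.23, -0.13 and 0.36 (mean 0.14 ± 0.21). All 3 were highest on replicate 4. None of them was called, and the log2 intensities of cKO and control RNAs overlapped for each.

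Igf2 was the second member with a negative ratio on every array. Its cKO RNAs had log2 intensities of 13.64, 13.46, 13.22 and 12.66, against 14.17, 13.76, 13.29 and 13.14 in control RNAs. The log2 ratios were -0.53, -0.30, -0.07 and -0.48, a mean of -0.35 ± 0.21 (SD, n = 4), and Igf2 was not called. Its level differed more between arrays than between the 2 RNAs of an array, and the female RNAs of replicates 1 and 2 were higher than the male RNAs in both genotypes. The groups therefore overlapped although each cKO RNA lay below its own control RNA. Over all genes 7.66% had a lower value in cKO on all 4 arrays.

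Igf1 had 5 probes spread along the gene, and their ratios did not move alike. The mean log2 ratios ranged from -0.19 to -0.01, and none was called. The 2 most distal probes, A_55_P2031636 and A_55_P2085974, lie 3597 bases apart and had the widest spread of all 15 probes. The first had -0.49, 0.50, 0.05 and -0.27 and the second -0.50, 0.43, 0.11 and -0.27, so that replicates 1 and 2, both female, went opposite ways. A_55_P2031631 and A_55_P2085984 share 40 of their bases and had ratios between -0.38 and 0.10. The most proximal probe, A_55_P2085979, lies 15045 bases upstream of these and had -0.16, -0.10, 0.06 and 0.15. The brightest probe, A_55_P2085974, stands for the gene, with a mean of -0.06 ± 0.41 (SD, n = 4), and 3.26% of all genes had a larger SD. Igf1r had ratios of -0.18, 0.28, 0.06 and -0.11 (mean 0.01 ± 0.21).

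Taken as sets, the mean log2 ratio of Igfbp2, Igfbp3 and Igfbp5 was -0.31, -0.24, -0.33 and -0.32 on replicates 1 to 4. The mean of the other 6 genes on the same arrays was -0.22, 0.05, -0.06 and 0.01. Igfbp2 was the lowest of the 3 genes on replicates 1 to 3 and Igfbp5 on replicate 4, while Igfbp3 had its lowest ratio, -0.16, on replicate 2. The median over the 9 members was -0.06, beside 0.00 over all genes tested, and between 5 and 7 of the 9 had a negative ratio on a given array. The mean ratio was negative for 7 of the 9, beside 10778 of the 21501 genes tested. The members were chosen by these ratios, so nothing is read from these counts.

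The cKO over control ratio could be compared between sexes, with 2 arrays each, in a fit over all genes. The ratio of Igfbp2 was -0.60 on male and -0.57 on female arrays. The largest difference between sexes among members was that of Igfbp4, 0.23 higher on male arrays, with ratios of 0.10 and -0.13. It had an unadjusted p of 0.389 in limma, and no member passed adjustment, where 0.0698% of genes did. This fit leaves 1 residual degree of freedom per gene, and limma gave all genes a common variance. The p therefore does not measure the spread of Igfbp4 itself. Among the probes that stand for the 9 genes, the dye effect, red over green, was largest in size for Igfbp7. It was -0.16 on the log2 scale, with an unadjusted p of 0.0926 in limma. For Igfbp2 it was -0.15 (unadjusted p = 0.154 in limma). The mean Igfbp2 ratio was -0.73 with cKO in red and -0.44 with cKO in green. In the second Igfbp2 probe the dye effect was -0.22. No gene of the array passed adjustment for the dye effect, the background being 0 of 21501 genes. With 2 arrays in each sex, only large differences could be seen.

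Beyond the members, 82 further genes of IGF signalling were listed by role, of which 76 were tested. Of these, 1 was called lower and 1 higher (limma), which is 2.63% of the 76 beside 1.24% of all genes. At unadjusted p under 0.05 there were 7 lower and 7 higher of the 76, beside 8.04% of all genes in either direction. The lists were chosen with earlier results of these data known, so nothing is read from these shares. The median log2 ratio of the 76 genes was 0.02, beside 0.00 over all genes. The one called lower was Adam28, which encodes a metalloproteinase reported in human cells to cut IGFBP3. Its log2 ratios were -0.67, -0.44, -0.62 and -0.77, a mean of -0.62 ± 0.14 (SD, n = 4, adjusted p = 0.0345 in limma). All 4 cKO RNAs, at 6.57 to 6.82, lay below the 4 control RNAs, at 7.18 to 7.45, near the low end of the signals. The one called higher was Phlda2, an imprinted gene of the cluster that also holds Igf2, known as a restraint on placental growth. Its log2 ratios were 1.14, 0.43, 0.92 and 1.11, a mean of 0.90 ± 0.33 (SD, n = 4, adjusted p = 0.0350 in limma). The cKO RNAs lay at 11.89 to 12.16 and the control RNAs at 11.02 to 11.46. Over all genes 7.69% were higher in cKO on all 4 arrays, and 3.05% had every cKO RNA above every control RNA.

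Among ligand clearance and insulin receptor genes, 0 of 4 tested were called by limma, and none of them had an unadjusted p under 0.05. Igf2r, whose product takes up IGF2 for degradation, had a mean log2 ratio of 0.06 ± 0.19, and Insrr, an insulin receptor relative, -0.08 ± 0.22 (SD, n = 4 each). Among binding proteins and their relatives, 0 of 4 tested were called by limma, with 3 at unadjusted p under 0.05. Igfbp1 had -0.25, -0.70, -0.27 and -0.32 (mean -0.39 ± 0.21, adjusted p = 0.172 in limma). Htra1, which encodes a secreted serine protease with an IGFBP-like domain, had -0.54, -0.26, -0.71 and -0.10 (mean -0.40 ± 0.27, adjusted p = 0.104 in limma). Both had negative ratios on 4 of 4 arrays without being called. Esm1, which encodes a proteoglycan secreted by endothelial cells and was chosen for mention after its values were seen, went the other way, with 0.58, 0.27, 0.23 and 0.24 (mean 0.33 ± 0.17, adjusted p = 0.249 in limma).

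Of the proteases and their inhibitors, 1 of 8 tested was called, Adam28. Pappa, which encodes the pappalysin that cuts IGFBP4 and IGFBP5, was chosen for mention after its values were seen. It had log2 ratios of 0.31, 0.65, 0.89 and 0.63, a mean of 0.62 ± 0.24 (SD, n = 4, adjusted p = 0.0776 in limma), and its cKO RNAs, at 12.22 to 12.75, lay above its control RNAs, at 11.74 to 12.12. Of 32 adaptors and kinases behind the receptor, 0 were called by limma, with 4 at unadjusted p under 0.05. Grb14, an adaptor that inhibits the insulin receptor, had 0.40 ± 0.09 (adjusted p = 0.0869 in limma), and Irs2, a docking protein of the IGF and insulin receptors, had -0.21 ± 0.04 (adjusted p = 0.432 in limma). Of 18 FoxO factors and genes under insulin and IGF control, 0 were called by limma, with 4 at unadjusted p under 0.05. Egr1, an immediate early gene induced by growth factors and by stress, had 0.21, 1.61, -0.05 and 1.05 (adjusted p = 0.0568 in limma), the 2 high values being those of the arrays with cKO in green. Foxo6 had -0.28 ± 0.16 (adjusted p = 0.355 in limma). Of 10 imprinted partners and RNA binding proteins of Igf2, 1 was called, Phlda2.

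**Figure D4:**
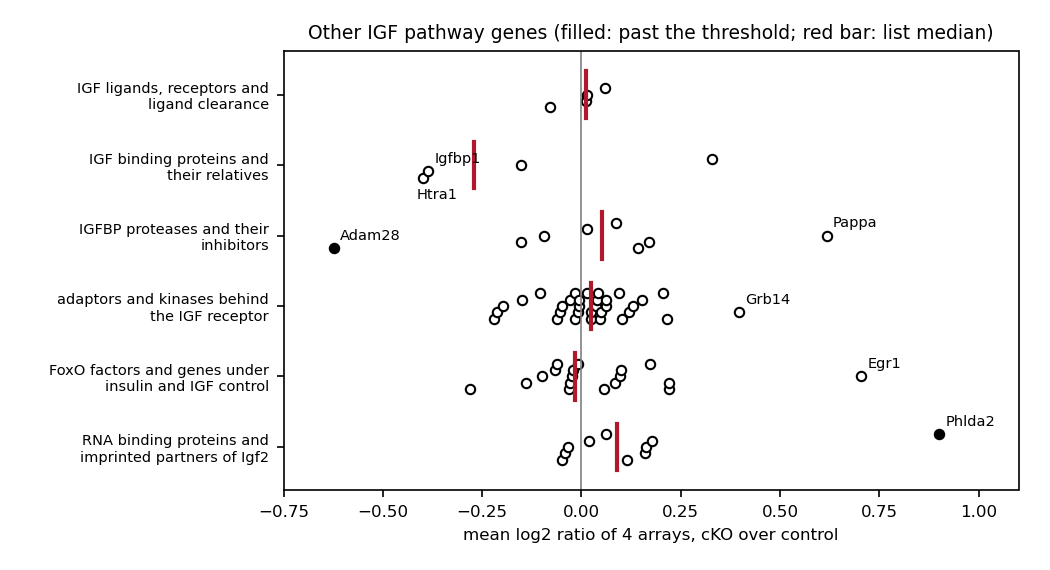
Mean log2 ratio of cKO over control of the 4 arrays (x axis) for 76 IGF pathway genes other than the 9 members, in 6 lists by role (rows), with filled points for genes past adjusted p under 0.05 and a red bar at each list's median. Adam28 on the left and Phlda2 on the right are the filled points, and the medians of 5 of the 6 lists lie between -0.02 and 0.09.

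Markers of cell types were read beside the Igfbp2 ratio. In these whole ureters, fewer cells of a type and less RNA per cell cannot be told apart. Of 12 basal urothelial markers, 9 were called lower and 0 higher (limma), and 1 of these 9 was Trp63, the targeted gene. Over all genes 0.712% were called lower. The basal list had a median log2 ratio of -1.08, with medians of -1.10, -0.83, -1.32 and -1.13 on replicates 1 to 4. The summed linear signal of the list was 14659 to 16256 in cKO RNAs and 29089 to 36096 in control RNAs. Of 12 skeletal muscle markers, 2 were called lower (Myl1 and Ckm) and 0 higher, with a median of -0.41 and medians of -0.25, -0.38, -0.68 and -0.39. Their summed signal was 32587 to 42044 in cKO RNAs and 42062 to 49016 in control RNAs. Replicate 3 was the lowest array for Igfbp2, for both of these lists and also for the lists of all epithelial cells, superficial urothelial cells and nephron and kidney stroma, with medians there of -0.14, -0.28 and -0.35. Of 7 superficial urothelial markers, 2 were called lower and 1 higher (Upk2 and Grhl3 lower, Krt20 higher), with a median over the list of -0.01. The medians of the macrophage and leukocyte list, at -0.31 to -0.15, and of the list of all epithelial cells, at -0.14 to -0.07, were negative on all 4 arrays, with 0 of 10 called in the first by limma (3 lower at unadjusted p under 0.05) and 1 of 12 called, higher, in the second. The summed signal of the macrophage and leukocyte list was 33495 to 37556 in cKO RNAs and 38322 to 46824 in control RNAs. That of the list of all epithelial cells went the other way from its medians. It was 564247 to 600320 in cKO RNAs and 506798 to 549898 in control RNAs. A linear sum weighs bright probes most. Of these 12 markers, 10 had a negative mean log2 ratio. The others were Krt8 (0.37, not called) and Krt18 (0.50, called). Their mean log2 intensities were 17.46 and 17.25 in cKO RNAs and 17.10 and 16.75 in control RNAs. Of 12 ureteric mesenchyme and fibroblast markers, 0 were called by limma, with 1 at unadjusted p under 0.05, and the median was -0.02. The part of any of these cells in the Igfbp2 ratio was not tested. The ratio of Igfbp5 was lowest on replicates 4 and 1. The mesenchyme list was also lowest on these arrays, with medians of -0.08, 0.13, 0.24 and -0.37 on replicates 1 to 4. The same held for the smooth muscle list (-0.14, 0.13, 0.13 and 0.07) and the endothelial list (0.02, 0.13, 0.13 and 0.12). It also held for the 76 other IGF pathway genes (-0.05, 0.08, 0.08 and -0.01). The part of any of these cells in the Igfbp5 ratio was not tested.

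**Figure D5:**
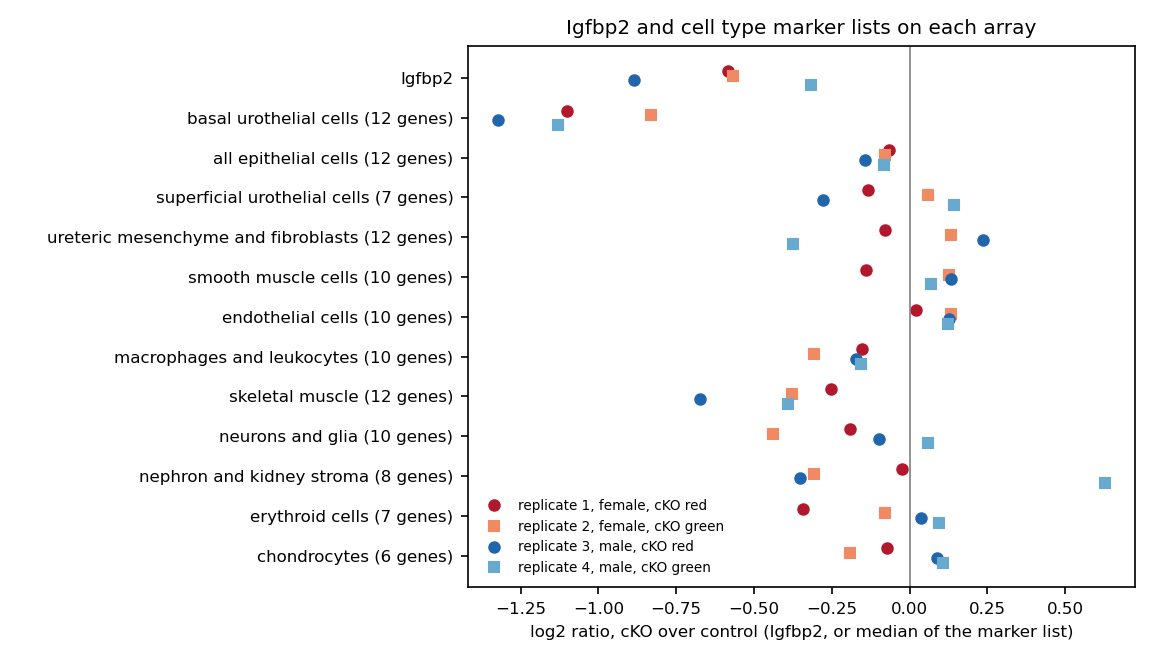
Log2 ratio of cKO over control (x axis) on each array for Igfbp2 and, below it, the median of each of 12 cell type marker lists (number of tested genes in brackets), coloured by replicate. The basal urothelial list, at -1.32 to -0.83, lies further left than Igfbp2 on every array, and the lists of skeletal muscle, macrophages and leukocytes, and all epithelial cells are also left of 0 on all 4.

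The genes nearest to each of the 3 binding proteins were sought by the Euclidean distance over the 4 log2 ratios. The search covered 15944 of the 21501 tested genes. It left out the members, genes without a RefSeq symbol, and clone or unnamed features. With only 4 arrays such likeness describes these arrays alone. The genes nearest to Igfbp2 were Map3k6 (distance 0.07), Sema3f (0.15) and Adig (0.19). Map3k6 had ratios of -0.55, -0.50, -0.88 and -0.34, and both Map3k6 and Sema3f were called lower. They were picked by likeness to the ratios of Igfbp2, so nothing is read from these calls. Nearest to Igfbp3 were Arhgef33 (0.02), Zfp609 (0.04) and Phrf1 (0.04), none of them called. Nearest to Igfbp5 were Vangl1 (0.08), Itga8 (0.09) and Angptl7 (0.10), none of them called. Itga8 had ratios of -0.29, 0.06, -0.09 and -0.56, high and low on the same arrays as Igfbp5.

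Igfbp2 and Igfbp5 are next to each other on chromosome 1, on opposite strands, in the RefSeq gene table of assembly GRCm38.p6. Their outer neighbours were not called, with a mean log2 ratio of -0.05 ± 0.42 for Rpl37a beside Igfbp2 and 0.06 ± 0.03 for Tnp1 beside Igfbp5 (SD, n = 4 each). Igfbp1 and Igfbp3 likewise lie side by side on chromosome 11. There the ratio of Igfbp1 was negative on every array, whereas that of Igfbp3 was near 0.

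The first of 2 promoter windows of Igfbp2, the called member, is shown because p63 is a DNA binding factor of the p53 family. RefSeq promoter windows of build GRCm38.p6, of 300 bases around the start, were found for all 9 genes, 13 windows in all. Capitals mark matches on either strand to CACGTG (the E-box core) and GGGCGG (the GC box).
Igfbp2, chr1:72824230-72824529, plus strand: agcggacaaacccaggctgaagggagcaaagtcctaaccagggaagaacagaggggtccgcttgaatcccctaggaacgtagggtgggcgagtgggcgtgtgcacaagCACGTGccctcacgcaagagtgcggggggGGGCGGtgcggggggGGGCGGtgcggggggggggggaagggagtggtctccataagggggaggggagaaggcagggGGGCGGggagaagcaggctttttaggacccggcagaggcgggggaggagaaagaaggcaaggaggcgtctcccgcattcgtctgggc
CACGTG, present in 7.15% of 32851 promoter windows, was found in this window alone among the 13. GGGCGG, present in 35.7% of all windows, was found in 5 of the 13, those of Igfbp2 (3 matches), Igfbp7, Igf1r and 2 of the 4 of Igf2. TATAAA, present in 13.6% of all windows, was found in those of Igfbp4, 28 bases before the start, and Igfbp6. The p53 family half-site was found in 8.36% of all windows and in 1 of the 13, a window of Igf2. No match for it lay in the windows of Igfbp2, Igfbp3 or Igfbp5, which says only that these letters are not there.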

How the data were processed

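RNA of ureters was labelled from 200 ng with 1 round of T7 amplification and hybridised to 4 arrays with 2 colours on 1 slide, per the labels' protocols and the file headers. Each deposited scanner file gives intensity values of single spots with local background, and flags of other kinds, from version 10.7.3.1 of Agilent's Feature Extraction software, as the submitters' processing notes record. The deposited series value table is in log2: against red over green its slopes were 0.951, -0.950, 0.947 and -0.959 for replicates 1 to 4, so it gives cKO over control. Its column medians are 0, 32.2% to 32.6% of its values are exactly 0, and the sources used here do not state how the authors set these.

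Background was corrected with normexp (offset 50) and ratios by loess within each array, control spots at weight 0 and 17 to 35 nonuniform spots per array left out. No spot reached saturation. Probe values are means of 4 spots. The filter required, in cKO or in control RNA, that on every one of the 4 arrays a share of 0.5 or more of the spots exceeded background (Agilent's flag). The brightest kept probe stood for a gene, which gave 21501 genes, 1 with a missing ratio. limma 3.58.1 in R 4.3.3 fitted cKO over control with a dye term, two-sided, with Benjamini-Hochberg adjustment over all genes and a threshold of 0.05. The array pairs the RNAs. Of 39429 probes, 30385 were named by symbol, 1435 by accession and 7609 as filed. The number of arrays limits the precision. Levels of different probes were not compared.

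The members and gene lists were chosen with earlier results of these data known. Genes named are all members, called pathway genes or otherwise the 2 with the smallest p in a list, the 3 nearest patterns of each of 3 binding proteins, and Trp63. Pappa, Esm1, the called marker genes Myl1, Ckm, Upk2, Grhl3, Krt20 and Krt18, the marker gene Krt8, and the neighbours Rpl37a and Tnp1 fall outside that rule. They were chosen after their values were seen. The p53 family half-site was searched as its 10-letter consensus on both strands. Alternatives were other background corrections and normalisations, the filter, the probe rule, the pairing, sex and dye terms, the variance model, the deposited table and leaving out each replicate.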

Additional observations from a re-analysis of the deposited data

How the results depend on the processing

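The log2 ratios of Igf2, Igfbp2, Igfbp5 and Igfbp7 kept their sign in all 14 alternatives. Igfbp2 ranged from -0.66 to -0.51. It was no longer called with Agilent's processed signals (-0.60), median centring (-0.53), no filter on dim probes (-0.59), the mean of all kept probes (-0.61), an intensity trend (-0.59) and the deposited value table (-0.60), nor without replicate 3 (-0.51). It stayed called without the replicate block, the pairing by array, at -0.59. The cause of each lost call was not tested. Without the filter the number of genes tested was 29987. Leaving out 1 replicate gave fitted Igfbp2 ratios of -0.66 to -0.51. Fits without 1 replicate kept the dye term, which weights the remaining arrays unequally, so their ratios differ from plain means. Such fits leave 1 residual degree of freedom per gene. The signs of values near 0 turned. Median centring gave 0.00822 for Igfbp3 (as a gene and in its brighter probe), 0.0387 for Igfbp4, 0.0105 for Igf1 probe A_55_P2031636, 0.0410 for A_55_P2085979 and 0.00600 for the male minus female difference of Igfbp2. Leaving out 1 replicate gave -0.231 to 0.118 for Igf1, -0.0835 to 0.110 for Igf1r, -0.0983 to 0.0750 for Igfbp4 and -0.206 to 0.0666 for Igfbp6, also for the probes that stand for these genes. It gave -0.244 to 0.142 for A_55_P2031636, -0.0778 to 0.0495 for A_55_P2085979 and -0.0594 to 0.106 for the dim Igfbp3 probe. Over all genes, 153 were lower and 113 higher, against 55 and 31 with no filter, 310 and 233 with a sex term, 0 and 1 with the deposited value table, 266 and 194 with no dye term and 218 and 169 with no replicate block. Without genes that hold an exact 0 in the deposited table, a setting chosen after seeing the data, 198 were lower and 135 higher. Leaving out 1 replicate gave 155 to 855 lower and 128 to 753 higher, most without replicate 4. Of IGF pathway genes other than the members, 1 was lower and 1 higher. The counts were 0 and 0 with no filter and with the deposited table, 0 and 2 without its exact zeros, 1 and 2 with median centring and with no replicate block, 1 and 3 with a sex term, and 1 to 4 lower and 2 to 6 higher when 1 replicate was left out. With 4 arrays, the ratios of Igf2 and Igfbp5 did not pass the threshold over all genes, except Igfbp5 without replicate 2 (-0.41).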
